A study of Mus musculus with 96 samples.

Results

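The genes for the proteins of the mitochondrial ribosome were followed through 96 single cells of mouse marrow. They were taken as every gene symbol of the expression table that begins with Mrpl or Mrps followed by a digit, which gave 77 of 24321 symbols, 48 named Mrpl and 29 named Mrps. Each cell was labelled as an erythroid precursor of genotype Rpl11 +/lox on the C57BL/6 background, and the study's title concerns ineffective erythropoiesis in Rpl11 haploinsufficient mice. Rpl11 codes for a protein of the cytoplasmic ribosome. All 96 cells carry the same genotype, so no genotype was compared; the driver of recombination is not given in the sources used here, and no animal is named. Cells were captured singly on the Fluidigm C1, a microfluidic chip, imaged for the erythroid surface antigen Ter119, and their mRNA was amplified with SMART-Seq chemistry. The cells were compared across low, middle and high levels of Hba-a1, an adult alpha-globin gene.

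The mitochondrial ribosome translates the few proteins coded by mitochondrial DNA, which are core subunits of the respiratory chain and of ATP synthase. Its own proteins are coded in the nucleus, made in the cytoplasm and imported, and they form a large and a small subunit. Some have bacterial counterparts, and others were added in the mitochondrial lineage. Red cell precursors depend on mitochondria because heme synthesis begins and ends there, and they discard the organelle late in maturation.

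Levels are RPKM, a read density scaled to transcript length and to the mapped reads of a cell, as the authors deposited them, and a gene took the value of its highest transcript in each cell. A gene is called detected in a cell at 1 RPKM or more. Of 96 cells, 27 had fewer than 1000 detected genes and were left out. A further 12 were set aside because they carried markers of other blood cells: 4 met the neutrophil list, 8 the monocyte or macrophage list, 1 the mast cell or basophil list and 1 the T or NK cell list, with some cells meeting more than 1. The 57 kept cells divided into 5 with low Hba-a1 (under 10000 RPKM), 9 with middle Hba-a1 (10000 to under 200000 RPKM) and 43 with high Hba-a1 (200000 RPKM or more). These are ranges of 1 transcript and not cell types. No kept cell lay within 1.25-fold of the lower boundary, and 8 lay that close to the upper one, with 180178 RPKM just below and 212180 RPKM just above it. Depth is not part of RPKM, and an estimate from the steps between low values, uncertain by a factor of 2, had medians of 5.03, 6.60 and 7.13 in units of 1000000 reads or read pairs in low, middle and high cells. Genes detected per cell had medians of 3556, 3793 and 1627 in the same order, and Rpl11 had medians of 440, 348 and 24.6 RPKM.

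The erythroid label held for the middle and high cells and only in part for the low ones. Of 17 erythroblast markers, high cells had 6 to 15 at 10 RPKM or more and middle cells 7 to 14. In order of rising Hba-a1, the 5 low cells had 0, 0, 9, 0 and 7 of these markers, and 1, 1, 8, 4 and 8 of 10 late progenitor markers. The 3 low cells without an erythroblast marker had 5, 2 and 1 of 11 neutrophil markers and 2, 3 and 5 of 11 monocyte or macrophage markers, whereas the other 2 had none of either. Low-range values below are over all 5 cells, and those against the 2 erythroblast-marked cells alone are given beside the set values and for some of the genes. Because the cells count as 1 sample, no test between ranges was made, and every SD below is over cells.

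Mitochondrial ribosomal protein transcripts were abundant in low and middle cells and sparse in high cells. Low cells detected 33 to 74 of the 77 genes with a median of 55, middle cells 50 to 72 with a median of 63, and high cells 3 to 53 with a median of 17. The high cells reached into the lower part of the other ranges, but 9 of the 43 (20.9%) detected fewer than 10 of the genes and only 5 (11.6%) detected at least 39. Summed over the 77 genes, the median cell had 9377 RPKM in the low range, 8476 RPKM in the middle range and 1317 RPKM in the high range. Globin takes up more of the RPKM in high cells, so the sum was also set against all RPKM outside the globin genes. On that scale the 77 genes made up a median of 1.53% in low, 1.59% in middle and 0.47% in high cells. High cells ran from 0.0917% to 1.44% and middle cells from 0.971% to 1.96%, so the ranges overlapped.

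**Figure D1:**
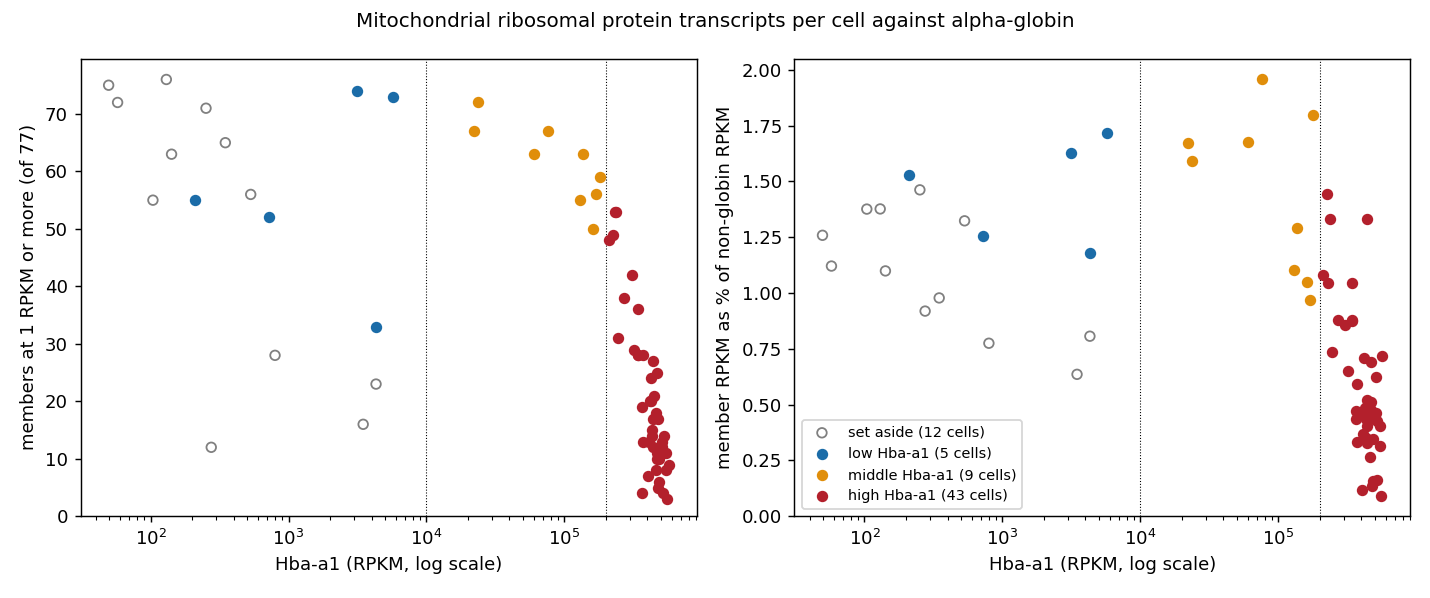
Mitochondrial ribosomal protein genes in each cell against Hba-a1 in RPKM on a log axis: left, genes detected of 77; right, their summed RPKM as a percentage of RPKM outside the globin genes. Each point is 1 cell, dotted lines mark 10000 and 200000 RPKM, and open circles are the 12 cells set aside; the median high cell detected 17 of the genes, against 63 in the middle range.

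Within the high range, fewer members were detected in cells with more Hba-a1. In cells with 200000 to under 300000 RPKM of Hba-a1 the median number of detected members was 48.5 (6 cells), and it was 28 from 300000 (9 cells), 14.5 from 400000 (20 cells) and 10 from 500000 RPKM (8 cells). The first of these bands was close to the upper middle cells, since 5 cells between 100000 and 200000 RPKM detected a median of 56. All genes detected per cell had medians of 2843.5, 2104, 1556 and 1094.5 in the same 4 bands, so detection of the members and of all genes was lower in the same cells. In the band from 500000 RPKM, 36 of the 77 genes were detected in no cell, against 4 in the band from 200000 RPKM. This count was not made over all genes, so it does not show what is particular to the members.

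Across the 57 kept cells, the mean level of the members, as log2(RPKM + 1), had a Spearman correlation of -0.88 with Hba-a1, 0.94 with the number of genes detected and 0.94 with the mean level of 78 cytoplasmic ribosomal protein genes. Within the 43 high cells these values were -0.75, 0.88 and 0.89. Correlation with the estimated depth was -0.31 over the kept cells and -0.06 over the high cells. These cells share an unknown number of animals and all values of a cell share its library, so the correlations are descriptions, and the part of genes per cell in the result was not tested.

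Most values of the members in high cells were exactly 0. Zeros made up 23.1% of the 385 values of the 77 genes in low cells, 17.3% of 693 values in middle cells and 69.1% of 3311 values in high cells. The values of 1 RPKM or more had a median of 114 RPKM in low cells (middle 50% from 59.3 to 209 RPKM), 87.9 RPKM in middle cells (43.3 to 183 RPKM) and 68.9 RPKM in high cells (37.2 to 119 RPKM). Different genes stand behind these medians. Taken gene by gene, the median of the detected values in high cells was 0.676 times that in middle cells (median over 74 genes detected in both) and was the lower one for 54 of them. These values are as deposited, and all RPKM outside the globin genes had medians of 549470 in middle and 282042 in high cells. The ratio was not made with globin removed or over all genes. It therefore does not show that detected members were lower relative to other non-globin genes. A zero here is a transcript listed at 0, which in single cells can be a molecule that was not captured.

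**Figure D2:**
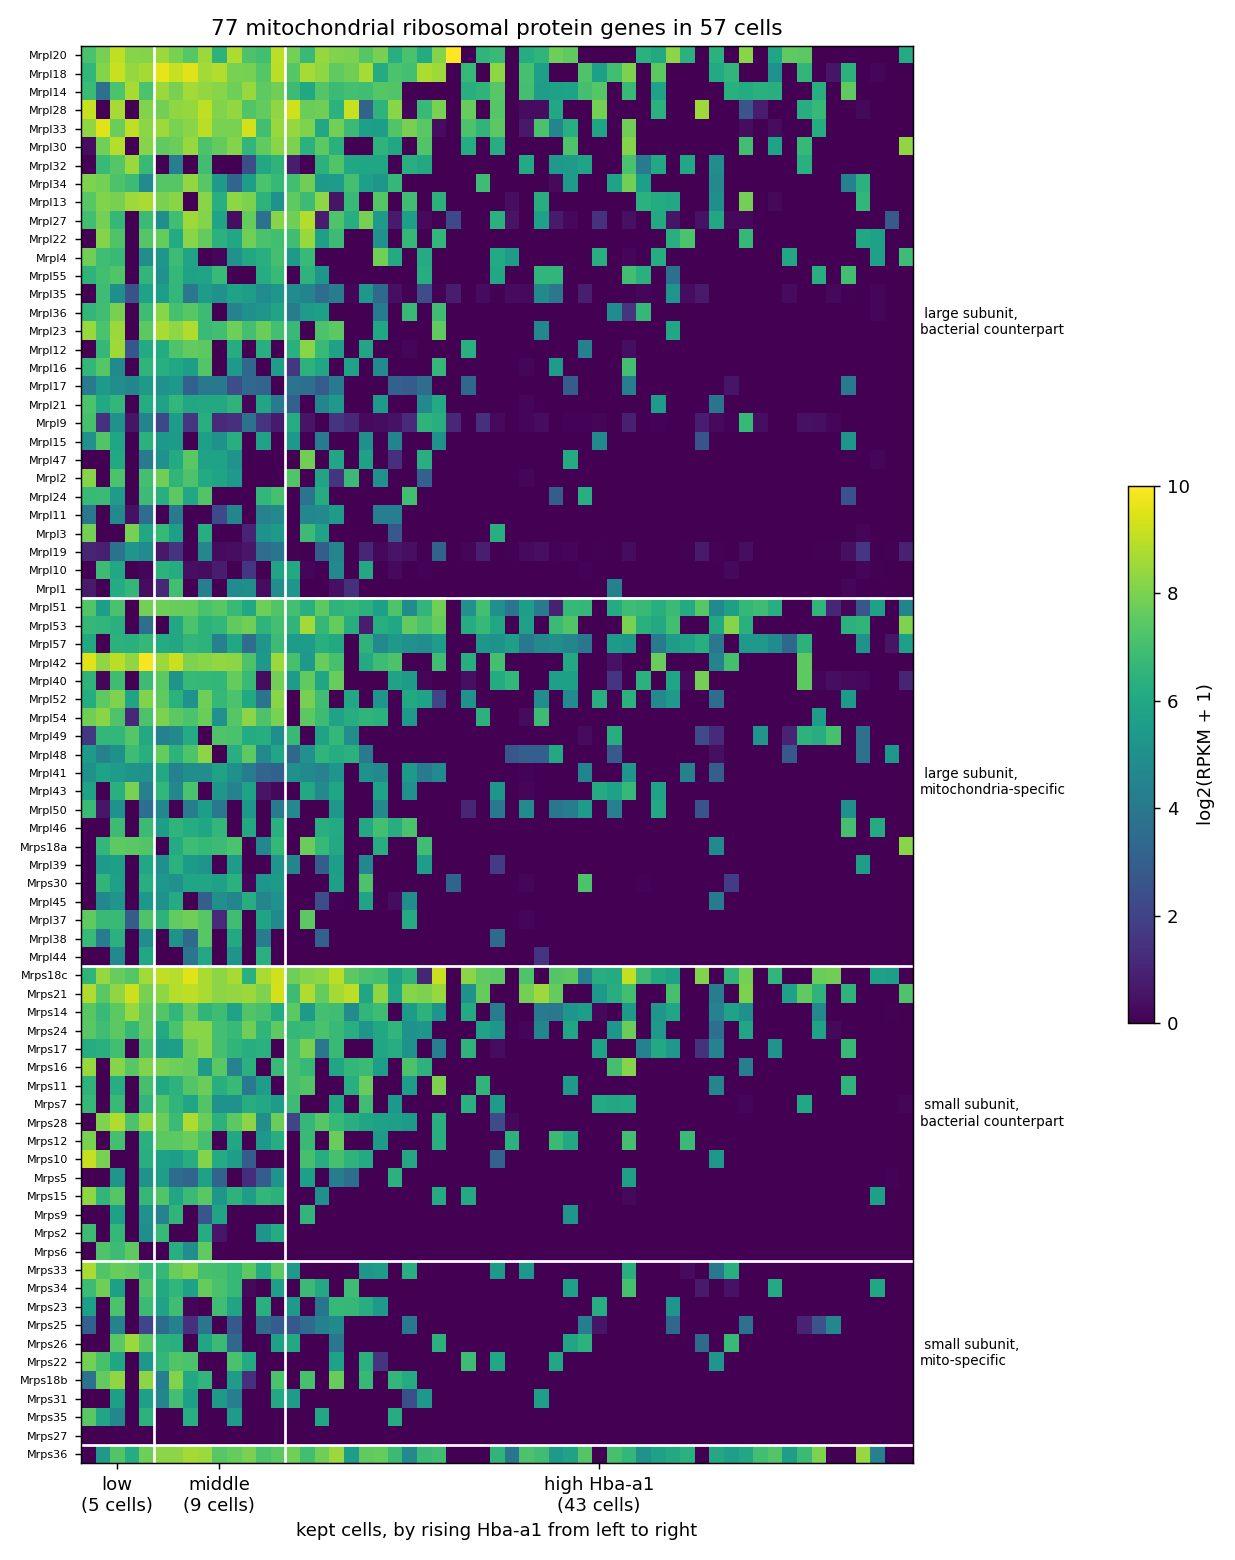
Level of each of the 77 genes, as log2(RPKM + 1), in the 57 kept cells. Rows are genes, grouped by subunit and by whether the protein has a bacterial counterpart, with Mrps36 alone at the bottom; columns are cells by rising Hba-a1, and white lines separate the 5 low, 9 middle and 43 high cells. Dark cells at 0 make up 69.1% of the high range.

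Gene by gene, the members were lower in high than in middle cells. The mean log2(RPKM + 1) of 75 of the 77 genes was lower by 1 or more in high than in middle cells, and none was higher by that much, with a median difference of -3.54. Over all 5915 genes detected in at least 6 kept cells, 63.3% were lower by 1 or more and 1.28% higher, with a median of -1.49. This filter kept 76 of the 77 members. Among the 3520 genes whose mean log2(RPKM + 1) was at least 1 over the kept cells, 78.0% were lower by 1 or more and 2.07% higher, and 65 of the 66 members at that level were lower and none higher. A lower value in high cells was thus common to most genes. The members' median minus that of all 5915 genes was -2.05 log2 units as deposited and -2.27 once globin was removed and each cell rescaled. These 2 sets start at unlike levels, with medians in middle cells of 5.01 for the members and 2.51 for all 5915 genes. A gene with a low level has less room to be lower on this scale. Among genes with a mean of at least 1 the median differences lay closer, at -3.85 for the 66 members and -2.33 for all 3520. The size of the members' difference depends on the cells set against each other. Without a gene minimum, 56 high and 22 middle cells gave a median of -0.99 with 35 members lower and 1 higher, beside 15.0% lower and 6.98% higher over all genes and a median of -0.32. Mrpl51 was the one higher, by 1.17, and Mrpl20, Mrps18c and Mrps36 were at 0.90, 0.59 and 0.93 in that setting, the reverse of their signs below. In 3 groups of 19 cells by Hba-a1, where the upper and the middle group both hold cells of the high range alone, the upper differed from the middle group by a median of -0.71 with 30 lower and 1 higher, beside 23.7% lower and 0.524% higher.

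High against low cells gave a similar size. There 73 of 77 genes were lower by 1 or more and none higher, with a median of -3.70, against 60.7% lower and 6.32% higher and a median of -1.51 over all genes. Among genes with a mean of at least 1, 63 of 66 members were lower, against 67.4% lower and 10.3% higher over all such genes. Against the 2 erythroblast-marked low cells alone, 75 were lower and none higher and the median was -4.87, beside 72.5% lower and 4.23% higher over all genes and a median of -2.45. Middle and low cells differed little as a set: 14 genes were lower and 19 higher by 1 or more in middle cells, with a median of -0.12, beside 21.6% lower and 24.9% higher over all genes and a median of 0.02. Against the 2 erythroblast-marked low cells, 43 members were lower and 2 higher in middle cells and the median was -1.16, beside 40.8% lower and 11.9% higher over all genes and a median of -0.64.

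Members of both subunits and all 4 classes were lower in high cells. The 50 large subunit genes had a median difference of -3.62 between high and middle cells, with 49 lower by 1 or more, and the 26 small subunit genes one of -3.49, with 25 lower. Over all 5915 genes detected in at least 6 kept cells the median was -1.49, with 63.3% lower by 1 or more. Among the 3520 genes with a mean of at least 1 it was -2.33, with 78.0% lower. A lower value is thus not particular to these subunits or classes. By class, the median was -3.58 for 30 large subunit genes with a bacterial counterpart and -3.67 for 20 that are specific to mitochondria. It was -3.86 for 16 small subunit genes with a bacterial counterpart and -2.93 for 10 specific to mitochondria. The last class was the lowest of the 4 in every range. Its median level per cell was 4.35 log2(RPKM + 1) in low, 3.50 in middle and 0.60 in high cells. It holds Mrps27, which no kept cell detected and which counts as 0 in these means over 10 genes. In low cells the large subunit class specific to mitochondria was close, at 4.46, so the order of these classes there rests on Mrps27.

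**Figure D3:**
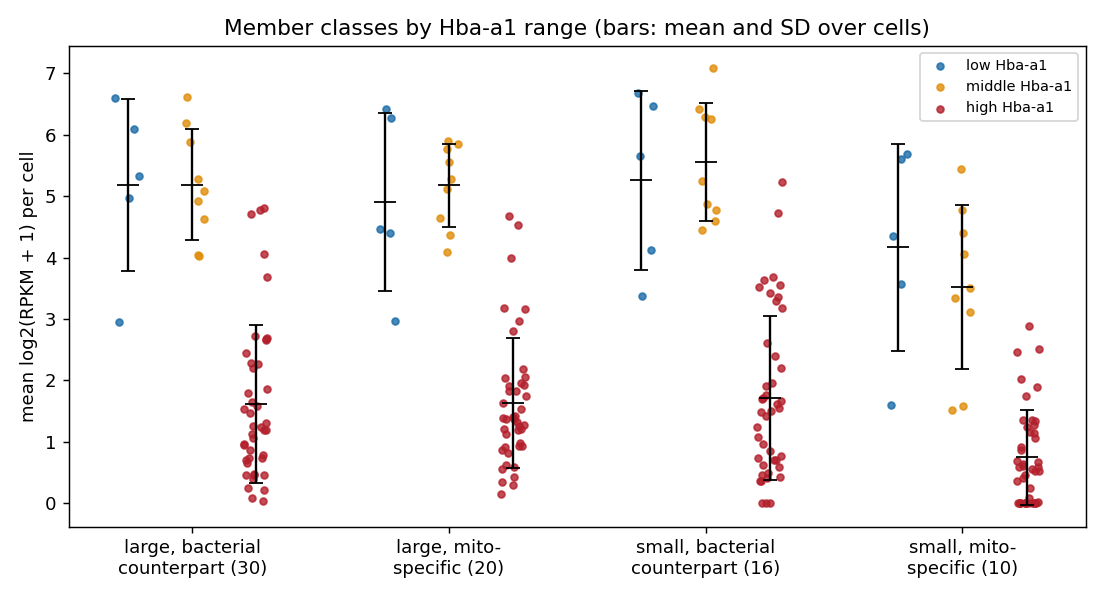
Mean log2(RPKM + 1) per cell of the 4 classes of mitochondrial ribosomal protein genes in low, middle and high Hba-a1 cells. Each point is 1 cell, and bars show the mean and SD over 5, 9 and 43 cells; in each class most high cells lie below the middle cells, and some overlap them.

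Few of the genes were detected in most high cells. Only Mrpl51, a large subunit protein specific to mitochondria, was detected in at least 80% of high cells, in 36 of 43 (83.7%, exact 95% interval 69.3 to 93.2%, counting error only). Its values in the 5 low cells, by rising Hba-a1, were 155, 46.7, 138, 0 and 241 RPKM; the 9 middle cells ran from 62.7 to 223 RPKM around a median of 167, and the 43 high cells from 0 to 236 RPKM around a median of 70.3. All 3 ranges overlapped, with 1 low cell and several high cells at 0. Its mean log2(RPKM + 1) differed by -2.27 between high and middle cells and by -0.58 between high and low cells. Against the 2 erythroblast-marked low cells the difference of high cells was -2.52, and with globin removed and each cell rescaled that against all low cells was 0.37, so no direction is given for high against low.

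Mrps36 was detected in 34 of 43 high cells (79.1%). Although it bears the name of a ribosomal protein, its product is known as a component of the alpha-ketoglutarate dehydrogenase complex, and it was put in no class. The low cells had 0, 40.4, 155, 71.8 and 220 RPKM, the middle cells 143 to 397 RPKM with a median of 255, and the high cells 0 to 359 RPKM with a median of 67.2. High cells differed by -2.75 from middle cells on the log2 scale. Middle cells differed by 2.60 from all low cells but by 0.39 from the 2 erythroblast-marked ones. High cells differed by -0.15 from all low cells, by -2.36 from the marked ones, and by 0.67 from all low cells with globin removed.

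Mrps18c, 1 of 3 related proteins of the S18 family in mammals, was detected in 32 of 43 high cells (74.4%). Low cells had 92.6, 345, 205, 165 and 392 RPKM, middle cells 81.1 to 736 RPKM with a median of 422, and high cells 0 to 574 RPKM with a median of 90.5. The ranges overlapped, and the mean log2 level differed by -3.43 between high and middle cells. Its relatives were seen less in high cells: Mrps18b was detected in 5 of 43, with means of 5.60 in low, 4.34 in middle and 0.80 in high cells on the log2(RPKM + 1) scale. Mrps18a, whose product sits in the large subunit despite its name, was detected in 7 of 43, with means of 5.78, 5.01 and 1.09 in the same order. Both of these overlap another gene on the genome, and how the authors assigned such reads is not given in the sources used here.

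Other genes with high levels in high cells were Mrpl20 (28 of 43 cells, median 83.2 RPKM), Mrps21 (27 cells, 59.3 RPKM) and Mrpl18 (25 cells, 67.8 RPKM). All 3 were among the 6 highest genes of the low range as well, where they averaged 8.09, 8.36 and 8.20 log2(RPKM + 1). Mrpl20 held the highest value of any member, 1304 RPKM in 1 high cell, while 15 high cells did not detect it. Mrpl18 overlaps Tcp1, so its level is less certain. The same holds for Mrpl14, Mrpl53 and Mrpl57, named next, which also overlap other genes. In all, 10 genes were detected in at least 50% of high cells, the 6 named here and Mrpl14, Mrpl53, Mrpl57 and Mrps14, the last 3 of these chosen after their values were seen. In middle cells 69 genes reached that share and in low cells 68. The like count over all genes was not made, so these counts do not show what is particular to the members. All genes detected per cell had medians of 3556 in low, 3793 in middle and 1627 in high cells.

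**Figure D4:**
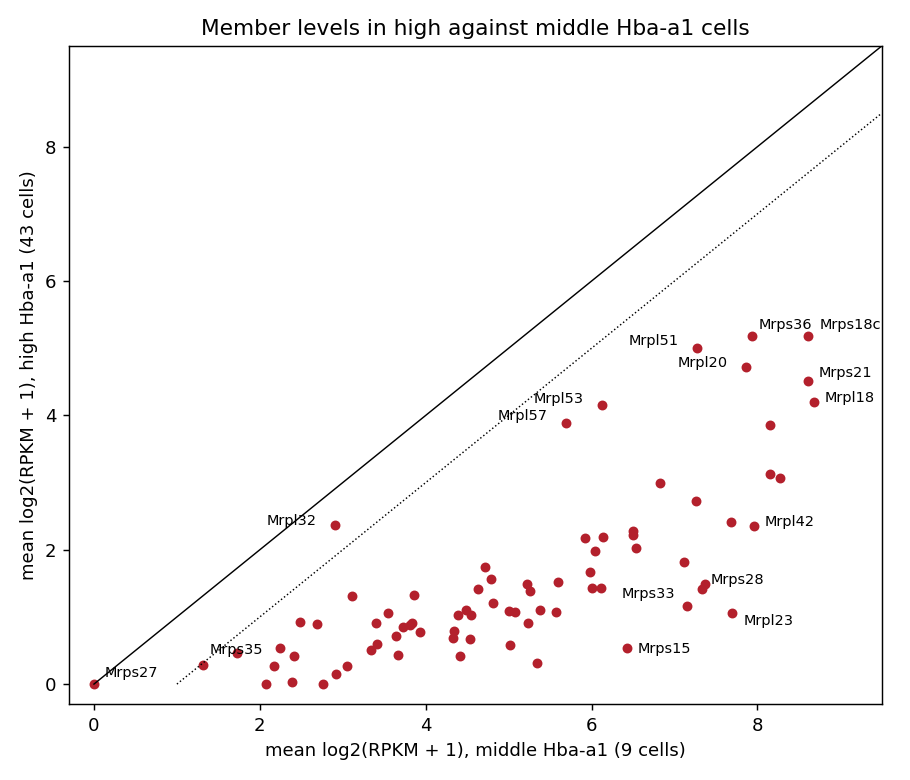
Mean log2(RPKM + 1) of each of the 77 genes in 43 high Hba-a1 cells (vertical axis) against 9 middle cells (horizontal axis). The solid line marks equal levels and the dotted line a difference of 1; 75 genes lie at or below the dotted line, Mrpl32 and Mrps27 above it, and none lies above the solid line.

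The largest differences belonged to genes that were detected at high levels in nearly all low and middle cells. Mrpl42, a large subunit protein specific to mitochondria, had the highest mean of the low range. Its low cells had 723, 326, 503, 320 and 928 RPKM, its middle cells 38.9 to 589 RPKM with a median of 304, and its high cells 0 to 209 RPKM with a median of 0. Every low cell was above every high cell, while middle and high cells overlapped. Its mean log2(RPKM + 1) was 9.00 ± 0.68 in low, 7.96 ± 1.12 in middle and 2.35 ± 3.26 in high cells (SD, n = 5, 9 and 43 cells). High cells differed by -5.61 from middle, by -6.65 from low and by -7.07 from erythroblast-marked low cells.

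Mrps33, of the small subunit and likewise specific to mitochondria, had 421, 155, 205, 181 and 108 RPKM in low cells, 67.8 to 265 RPKM in middle cells with a median of 134, and 0 to 78.3 RPKM in high cells with a median of 0. It was detected in 9 of 43 high cells (20.9%, exact interval 10.0 to 36.0%) and in all 9 middle and all 5 low cells. Its differences were -5.98 between high and middle cells, -6.43 between high and low cells and -6.06 between high and erythroblast-marked low cells. Mrpl42 and Mrps33 were the only members whose low cells all lay above all high cells, which is 2.6% of the 77 beside 1.94% of all genes tested, and no member separated middle from high cells completely, beside 0.135% of all genes.

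**Figure D5:**
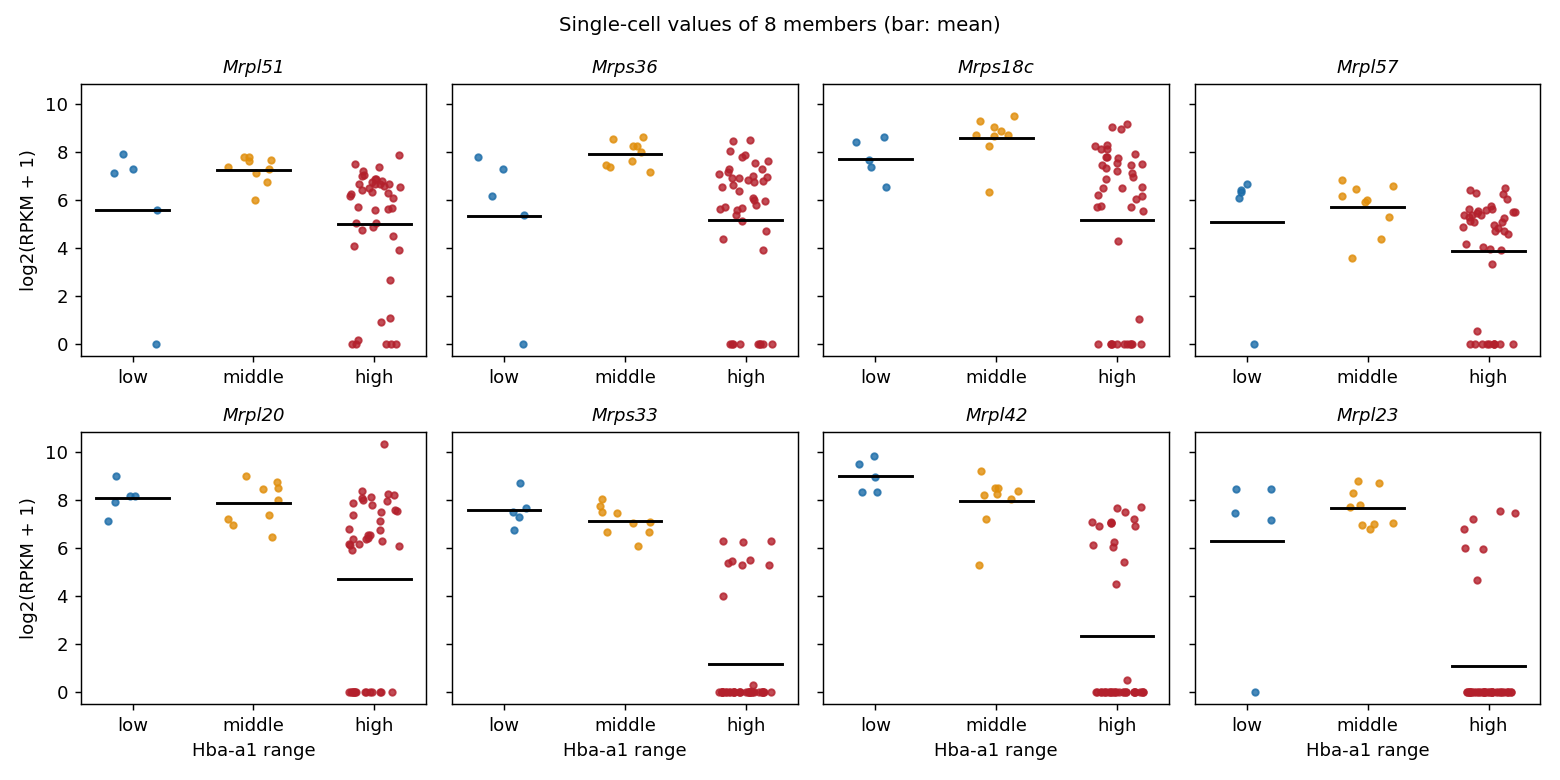
Log2(RPKM + 1) of 8 genes in each of the 5 low, 9 middle and 43 high Hba-a1 cells, with the mean as a bar. Mrpl51, Mrps36, Mrps18c, Mrpl57 and Mrpl20 keep most high cells above 0, and Mrps33, Mrpl42 and Mrpl23 leave most high cells at 0.

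The largest difference between high and middle cells belonged to Mrpl23, whose bacterial counterpart lies at the exit of the peptide tunnel. It had 350, 142, 359, 0 and 176 RPKM in low cells, 112 to 453 RPKM in middle cells and 0 to 185 RPKM in high cells, with medians of 0 in high and 212 RPKM in middle cells. It was detected in 7 of 43 high and 9 of 9 middle cells and differed by -6.64 log2 units. After Mrps33, the next were Mrps28, Mrps15 and Mrpl54 with -5.92, -5.88 and -5.88. They were detected in 11, 4 and 10 of the 43 high cells, and all 3 in every middle cell.

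Mrpl37, Mrpl13 and Mrpl33 completed the 5 largest differences between high and low cells, with -5.93, -5.93 and -5.52. Against erythroblast-marked low cells these were -6.68, -6.12 and -4.95. Mrpl37 was the least often detected of them in high cells: 2 of 43 high cells detected it, while the low cells had 186, 107, 106, 6.77 and 152 RPKM. Mrpl13 and Mrpl33 were still detected in 14 and 19 high cells. Mrpl37 and Mrpl33 overlap other genes on the genome.

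Some genes were detected in no high cell. Mrps2, of the small subunit, and Mrps6, a small subunit protein that in bacteria pairs with S18, were found in 0 of 43, which allows a share of up to 6.98%. Mrps2 was detected in 4 of 9 middle and 3 of 5 low cells, and Mrps6 in 3 of 9 middle and 3 of 5 low cells. Mrps27, a small subunit protein specific to mitochondria, was found in 0 of 57 kept cells, which allows up to 5.26%. It was detected in 4 of the 12 cells set aside for markers of other blood cells, at up to 180 RPKM. These 3 genes overlap other genes on the genome.

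Between middle and low cells single genes differed more than the set did, but many of these signs rest on the 3 low cells without erythroblast markers. Mrpl28 was higher by 2.95 log2 units in middle cells, with 154 to 527 RPKM there and 571, 0, 415, 0 and 274 RPKM in the low cells. The 2 zeros were low cells without erythroblast markers, and against the erythroblast-marked low cells the difference was -0.25. Mrpl30, Mrpl22 and Mrps7 showed the same turn: they were higher by 2.62, 2.56 and 2.11 in middle cells against all low cells and differed by -0.84, -0.20 and -0.56 against the marked ones.

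In the other direction, Mrps35 differed by -3.58 between middle and low cells, with 2 of 9 middle cells detecting it. Low cells had 174, 58.2, 23.7, 0 and 87.8 RPKM of it. Mrpl32, Mrps6, Mrpl13 and Mrpl38 followed with -2.97, -2.24, -1.65 and -1.54. Mrpl32 was also the only detected member whose mean differed by less than 1 between high and middle cells, -0.53, with 17 of 43 high and 5 of 9 middle cells detecting it.

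Members picked for their roles also had lower means in high cells than in the other ranges. Mrpl12 forms the stalk that recruits translation factors and averaged 4.80 log2(RPKM + 1) in low, 4.54 in middle and 1.03 in high cells. Mrps12, of the decoding centre, averaged 4.27 in low, 5.26 in middle and 1.38 in high cells. Mrpl3, whose human counterpart is a known cause of mitochondrial disease, averaged 4.37 in low, 3.35 in middle and 0.51 in high cells. Mrps30, a large subunit protein despite its name, averaged 3.72 in low, 5.01 in middle and 0.59 in high cells.

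The promoters of 4 genes are shown, of Mrps33 and Mrpl42, whose low cells lay above all high cells, and of Mrpl51 and Mrps18c, which were detected in most high cells. Each is the 250 bases before the RefSeq start on GRCm38.p6, 5′ to 3′ on the gene's strand. Expression was made on mm9 and was matched by symbol only. Capitals mark CCGGAAG, the letters bound by ETS factors such as GABPA, or CCAAT, the letters of NF-Y, on either strand. Mrps33 lies on the minus strand at chr6:39810937-39811186, Mrpl42 on the minus strand at chr10:95501950-95502199, Mrpl51 on the plus strand at chr6:125191950-125192199 and Mrps18c on the plus strand at chr5:100798509-100798758.
Mrps33: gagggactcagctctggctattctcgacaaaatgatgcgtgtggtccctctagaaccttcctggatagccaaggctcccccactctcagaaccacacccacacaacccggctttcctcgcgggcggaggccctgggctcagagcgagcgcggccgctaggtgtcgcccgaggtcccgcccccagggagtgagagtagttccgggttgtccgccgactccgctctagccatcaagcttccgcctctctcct
Mrpl42: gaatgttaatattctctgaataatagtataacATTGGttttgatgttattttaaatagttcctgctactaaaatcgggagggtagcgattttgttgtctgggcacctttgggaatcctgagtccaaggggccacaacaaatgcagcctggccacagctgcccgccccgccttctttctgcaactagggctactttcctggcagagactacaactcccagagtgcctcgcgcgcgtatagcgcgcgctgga
Mrpl51: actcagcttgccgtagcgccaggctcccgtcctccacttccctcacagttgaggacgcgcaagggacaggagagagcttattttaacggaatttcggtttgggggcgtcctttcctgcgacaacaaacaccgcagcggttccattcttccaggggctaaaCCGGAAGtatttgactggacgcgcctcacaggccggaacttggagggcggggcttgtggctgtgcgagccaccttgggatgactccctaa
Mrps18c: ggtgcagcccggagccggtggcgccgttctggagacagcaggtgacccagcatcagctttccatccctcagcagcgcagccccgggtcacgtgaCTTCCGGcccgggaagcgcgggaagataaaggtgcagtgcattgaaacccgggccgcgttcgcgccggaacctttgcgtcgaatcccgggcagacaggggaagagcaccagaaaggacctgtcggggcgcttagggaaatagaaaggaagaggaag

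Mrpl51 and Mrps18c each held the ETS letters once, Mrpl42 held CCAAT once, and Mrps33 held none of the 6 motifs searched. Of the 77 genes, 68 had a RefSeq promoter entry, and the 65 with exactly 1 were searched on both strands, beside 32851 entries in all. CCGGAAG was present in 15 of the 65 (23.1%), against 6.91% of all promoters, and the letters of nuclear respiratory factor NRF1, GCGCA and GCGC parted by any 1 base, in 10 (15.4%), against 3.74%. At least 1 of these was present in 24 (36.9%), against 10.1%. AANATGGC of YY1 was present in 7 (10.8%), against 3.91%, and AGATAA of GATA factors in 11 (16.9%), against 9.99%, Mrps18c among them. CCAAT was present in 23 (35.4%), against 33.8%, and TATAAA in 4 (6.15%), against 12.4%. These matches are descriptions of the letters in these windows.

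Genes that work beside the mitochondrial ribosome were counted in 5 lists. The background of 60.7% lower in high than in low cells and 63.3% in high than in middle cells holds for genes detected in at least 6 kept cells, so the genes of each list that met this filter are counted as well; the filter favours genes high in 1 range, and nothing is read from these small counts. Of 6 mitoribosomal proteins with other names, all of which met the filter, 5 were lower by 1 or more in high than in low cells and 5 in high than in middle cells. The exception was Gadd45gip1, a large subunit protein also known as CRIF1, which was detected in 43 of 43 high cells and averaged 6.19 log2(RPKM + 1) in low, 6.45 in middle and 5.93 in high cells. No Mrpl or Mrps gene was detected in every high cell. Aurkaip1 was detected in 27 of 43 high cells, and Chchd1 and Ict1 differed by -5.19 and -3.98 between high and low cells.

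Of 19 assembly factors of the mitochondrial ribosome, 10 were lower by 1 or more in high than in low cells and 6 in high than in middle cells; of the 5 that met the filter, 3 were lower in each. Malsu1, which joins the large subunit during assembly, differed by -2.95 between high and low cells and was detected in 1 of 43 high cells. Rbfa, a maturation factor, differed by -2.59, or by 0.083 with range boundaries of 1000 and 100000 RPKM, and Mrm1, a methyltransferase of the ribosomal RNA, by 0.64. Of 12 translation factors, 7 were lower in high than in low cells and 8 in high than in middle cells, and all of these were among the 9 that met the filter. They include the elongation factors Tsfm, with a difference of -4.77 between high and low cells, and Tufm, with -3.67. Mtif2, an initiation factor, differed by -1.07. With boundaries of 1000 and 100000 RPKM the signs of Tufm and Mtif2 turned, to 0.70 and 0.60, and within run code SCP-170608 Mtif2 was at 0.27.

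Of 16 mitochondrial aminoacyl-tRNA synthetases, 4 were lower by 1 or more in high than in low cells and 6 in high than in middle cells; of the 6 that met the filter, 3 were lower in each. Lars2, which charges the leucine tRNA, was detected in 43 of 43 high cells at 5.07 log2(RPKM + 1), against 5.26 in middle cells, a difference of -0.19, and its difference between high and low cells was -1.33. Rars2 and Tars2 differed by -2.67 and -1.36 between high and low cells, and Tars2 by 0.39 with boundaries of 1000 and 100000 RPKM. Of 12 genes of mitochondrial DNA upkeep and expression, 5 were lower in each comparison; of the 6 that met the filter, 4 were lower in high than in low cells and 5 in high than in middle cells. Ssbp1, which binds single-stranded mitochondrial DNA, differed by -5.66 and Slirp, an RNA-binding protein, by -4.64 between high and low cells. Against the 2 erythroblast-marked low cells, 6 of 6 other-named proteins, 13 of 19 assembly factors, 9 of 12 translation factors, 9 of 16 synthetases and 8 of 12 genes of mitochondrial DNA were lower by 1 or more in high cells. Over all genes that met the filter 72.5% were lower in this comparison. The list counts here are over every listed gene, whether it met the filter or not, and nothing is read from them. None of the genes of these 5 lists was higher by 1 or more in high than in low or in middle cells.

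The cytoplasmic ribosomal protein genes differed by more on the log2 scale than the mitochondrial ones, from higher levels. All 78 were lower by 1 or more in high than in middle cells, with a median of -4.35, and in high than in low cells, with a median of -4.67. Erythroblast markers went the other way against low cells, of which 3 had none of these markers. There 15 of 17 were higher by 1 or more in high cells, with a median of 3.70, beside 6.32% of all genes. Against middle cells 4 of 17 were higher in high cells, with a median of 0.26, beside 1.28% of all genes. Of 10 late progenitor markers, 8 were higher in high than in low cells. In high against middle cells 4 of the 10 were lower and none higher, with a median of -0.51.

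The difference was smaller and in the same direction among cells with more genes. With at least 2000 detected genes, which left 5 low, 9 middle and 13 high cells, the members' median difference was -2.06 between high and middle cells, with 65 of 77 lower by 1 or more, beside a median of -0.93 and 47.4% lower and 2.99% higher over all genes. Between high and low cells it was -2.10 with 59 lower and 2 higher, beside -0.92, 48.0% and 11.1%. Even so, high cells had at most 3016 detected genes, while middle cells had at least 3253 and low cells at least 3359. Every high cell thus stayed below every middle and low cell, and this setting cannot part Hba-a1 range from genes per cell. The gene minimum also changed the Hba-a1 levels within the high range. It kept all 6 cells from 200000 to under 300000 RPKM and no cell from 500000 RPKM. The part of these Hba-a1 levels in the smaller difference was not tested. Run codes were taken from the sample descriptions, since the titles give SCP-1706080 to all cells. Within them the high minus middle median was -2.94 in SCP-170608 and -4.38 in SCP-1706013. The code SCP-1706080 holds 22 high but only 2 middle and 2 low cells, too few for a value of its own. Fewer cells that express a gene and less RNA in each cell cannot be told apart where a transcript is listed at 0.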

How the data were processed

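Single-cell RNA-seq values of 96 cells were analysed. The values are RPKM, deposited by the authors for 34899 transcript rows; TopHat2 version 2.0.9 and the build mm9 were used per the submitters' processing notes, and no source used here gives counting, strand or depth. Of the 77 members, 9 have more than 1 of their 95 transcript rows. The highest row per symbol was used, on the log2(RPKM + 1) scale, which understates differences of low genes. Python 3.11.15, pandas 2.3.3, NumPy 2.4.6 and SciPy 1.17.1 were used.

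Cells were kept from 1000 genes at 1 RPKM, and set aside when at least 3 and at least 50% of a non-erythroid list's markers were at 10 RPKM or more; no kept cell was removed as a doublet, and no doublet caller was run. No cell met the megakaryocyte, B cell, stem or stroma lists, and no 2 cells had identical values. With 1 group label and no named animals there is 1 sample and no test; intervals of shares are exact (Clopper-Pearson, 95%), and a share of 0 is given the limit of 3 counts. A gene was called when mean levels differed by 1 or more on the log2 scale. Genes named were the 6 highest members of each range, the 5 with the largest called difference in each direction per comparison, members in no kept cell, 8 with set roles, and in each other list the 2 highest and the 2 with the largest difference. One gene of the aminoacyl-tRNA synthetase list is not reported here. Members, lists and ranges were chosen with earlier results of these data known. The computation was tested on simulated data. Overlaps with other genes were read from RefSeq on GRCm38.p6, by name, for 77 members, 25 of which overlap another gene. Alternatives changed the pseudocount, filter, scaling, transcript choice, gene minimum, cells set aside, Hba-a1 boundaries, averaging and run.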

Additional observations from a re-analysis of the deposited data

Results flagged for a closer look

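Cells outside the comparison also carried signal of the members. The 12 cells set aside for markers of other blood cells detected a median of 59.5 of the 77 genes, with a range of 12 to 76, and held the only detected values of Mrps27. The 27 cells with fewer than 1000 genes detected a median of 2 of the 77, with a range of 0 to 17.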

How the results depend on the processing

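No paired analysis was possible because all cells have 1 group label and their numbers pair nothing. Under 19 alternative settings 125 of 159 summary values stayed within the set limits and 34 moved, and of 836 values of single genes 747 stayed, 58 moved and 31 reversed. The cause was not tested.

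For high minus low cells, the median was -5.22 and -1.96 with pseudocounts of 0.1 and 10, -2.10 from 2000 genes and -6.00 with medians over cells. Members higher by 1 or more numbered 2 from 2000 genes, 3 with boundaries of 1000 and 100000 RPKM, and 1 within run code SCP-170608. Over all genes 11.1% were higher from 2000 genes, and the share was not made for the other settings of this count. For high minus middle cells, the median was -5.35 and -1.90 with these pseudocounts, -2.06 from 2000 genes, -5.58 with medians over cells, -0.99 with no gene minimum and -0.71 with the kept cells split by Hba-a1 into 3 groups of about equal size. In the last 2 settings 35 and 30 members were lower, and 1 and 1 higher, beside 15.0% and 23.7% lower and 6.98% and 0.524% higher over all genes.

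For middle minus low cells, the median of -0.12 changed sign, to 0.05 with a pseudocount of 0.1, 0.62 with no cell set aside, 0.68 with boundaries of 1000 and 100000 RPKM and 0.08 within SCP-170608. It was -2.30 with no gene minimum and -2.93 with groups of equal size. Members lower numbered 5 with a pseudocount of 10, 28 rescaled to the same total, 67 with no gene minimum, 5 with no cell set aside, 36 with boundaries of 50000 and 300000 RPKM, 76 with groups of equal size and 43 against erythroblast-marked low cells, an alternative chosen after seeing the data. Members higher numbered 9 with a pseudocount of 10, 0 with no gene minimum, 30 with no cell set aside, 36 with boundaries of 1000 and 100000 RPKM, 3 with boundaries of 50000 and 300000 RPKM, 0 with groups of equal size, 9 with medians over cells and 2 against erythroblast-marked low cells. Over all genes 32.2% were lower when rescaled to the same total, near the members' share. Against erythroblast-marked low cells 40.8% of all genes were lower and 11.9% higher. For the other settings listed in this paragraph the share over all genes was not made, so their counts do not show what is particular to the members.

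Single genes reversed mostly in middle minus low. With no gene minimum, Mrpl28, Mrps36, Mrpl30, Mrpl22 and Mrps7 were -2.75, -1.19, -2.32, -0.89 and -0.84. With groups of equal size they were -4.07, -1.98, -3.95, -5.07 and -2.40. Against erythroblast-marked low cells, Mrpl28, Mrpl30, Mrpl22 and Mrps7 were -0.25, -0.84, -0.20 and -0.56. With medians over cells, Mrpl30, Mrpl22 and Mrps7 were -0.26, -0.12 and -0.55. Mrps7 was -0.16 with boundaries of 50000 and 300000 RPKM, Mrpl32 and Mrps6 were 1.46 and 1.09 with boundaries of 1000 and 100000 RPKM, and Mrpl13 was 1.64 with no cell set aside. For high minus middle with no gene minimum, Mrpl20, Mrps18c, Mrps36 and Mrpl51 were 0.90, 0.59, 0.93 and 1.17. For high minus low, Aurkaip1 was 0.11 from 2000 genes. With boundaries of 1000 and 100000 RPKM, Rbfa, Mtif2, Tufm and Tars2 were 0.083, 0.60, 0.70 and 0.39, and within SCP-170608 Mtif2 was 0.27.

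Low-range values rest on 5 cells, of which 2 had erythroblast markers, and all cells share an unknown number of animals. Depth is an estimate uncertain by a factor of 2, and a value of 0 does not separate an absent transcript from one not captured. Boundaries of the Hba-a1 ranges are arbitrary, and the upper one lies among cells.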
